A study of Bos taurus with 14 samples.

Results

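Interferon-stimulated genes were followed in liver RNA from 14 Holstein bull calves. A list of 39 genes that interferons induce was matched by symbol to the deposited table of 17469 genes, and 37 of them were found. IFIT1 and BST2 had no row under those symbols and were not analysed here. Control calves (CON, n = 7) were given milk replacer at 1.75% of body weight, had starter feed from day 33, had the milk replacer reduced to 50% on day 82 and were weaned by day 89. Supplemented calves (DCLI, n = 7) were reared in the same way and also ate 1 g per day of dead cells of the bacterium Lactobacillus ingluviei, strain CR37. Liver was taken at slaughter on day 90 from all calves, and 1 poly(A)-selected library was made per calf. DCLI is the only treated group of the design, and libraries with a treatment title were assigned to it. The comparison asks what differed in liver RNA between calves fed with and without the dead bacteria.

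Interferons are secreted proteins that a cell releases on meeting viral nucleic acid or that activated lymphocytes release. Type I and type III interferons signal through the kinases JAK1 and TYK2 to a complex that holds STAT2 and IRF9, which enters the nucleus and switches on a broad antiviral programme. Interferon gamma, the type II interferon of T and NK cells, signals through its own receptor and induces IRF1, guanylate-binding proteins, chemokines and antigen presentation genes. Hepatocytes, Kupffer cells and liver endothelium all respond to interferons, and a tonic level of the programme is present in healthy tissue.

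Values are in TPM, which corrects read numbers for the length of the transcript and sets each library to the same total. They were summed over the transcripts of a gene. Sequencing depth therefore cannot be read from them. Between 11430 and 12358 genes reached 1 TPM in a library. Summed over 9 hepatocyte markers such as ALB and APOA1, the level ran from 61893 to 139589 TPM, so each library had the character of liver. Control calf 2 stood apart from the other calves in its T and NK cell markers and its macrophage markers. Its 12 T and NK cell markers summed to 706.5 TPM, against 44.5 to 232 TPM in the other 13 calves, and its 10 Kupffer cell and macrophage markers summed to 8390 TPM, against 1694 to 5541 TPM. In a bulk sample, fewer cells of a type and less RNA per cell cannot be told apart. No marker found in the table, of 8 cell type lists, was at 0 in every calf. Control calves 1 and 2 between them held the highest value of many genes, 22.7% and 23.98% of those tested.

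All 37 genes passed the filter of at least 1 TPM in at least 7 libraries that left 11905 genes for testing, and 34 of them reached 1 TPM in every calf. Their mean levels ran from 1.31 TPM for GBP5 to 293 TPM for IFI6. IFI6, LGALS3BP, ISG15 and OAS1Y had means above 100 TPM, 23 genes lay between 10 and 100 TPM and 10 lay under 10 TPM. The median of the 37 means was 13.96 TPM, against 9.60 TPM over all tested genes. The spread between calves was wide. The highest calf exceeded the lowest by a median of 3.81-fold, and the SD of log2(TPM + 1) over calves had a median of 0.51, against 0.26 over all tested genes.

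**Figure D1:**
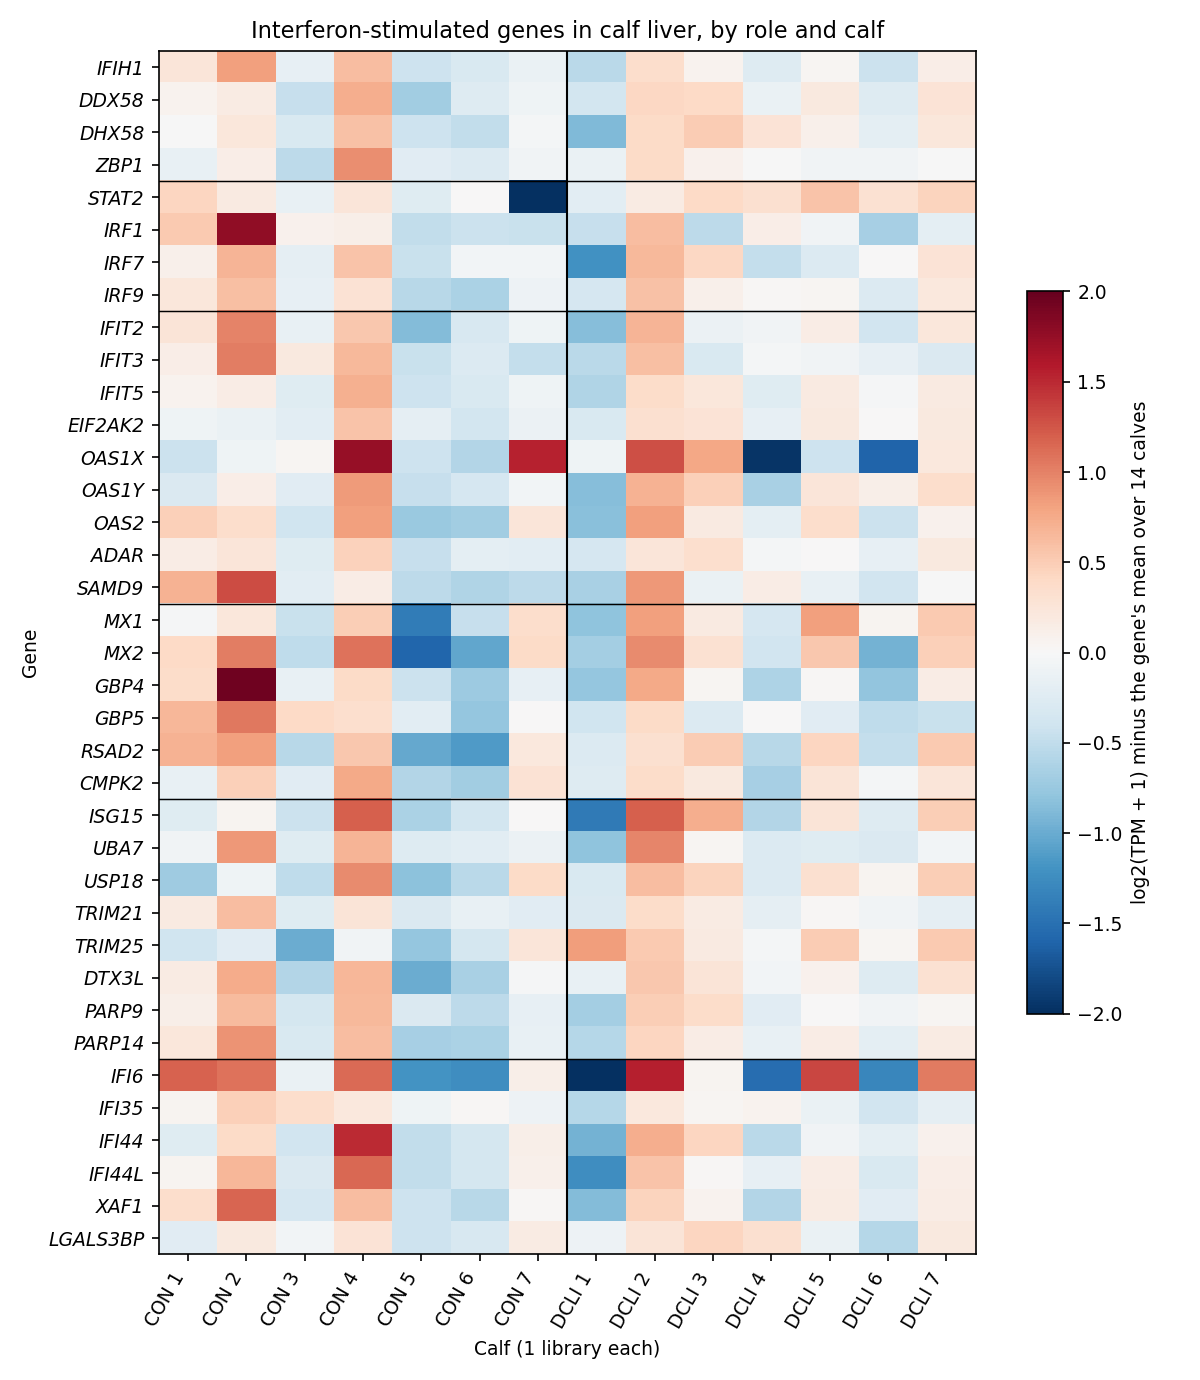
Heat map of the 37 interferon-stimulated genes (rows, in blocks by role: sensors, transcription factors, RNA-binding effectors, GTPases and other blockers, the ISG15 and ubiquitin system, other genes) in the 14 calves (columns), as log2(TPM + 1) minus the gene's mean over all calves, with colours saturated at 2 on either side. Columns of control calves 2 and 4 and DCLI calf 2 are mostly above the mean, and those of control calves 5 and 6 and DCLI calf 1 are mostly below it, while TRIM25 and STAT2 depart from that pattern.

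The sensors detect viral nucleic acid inside the cell. ZBP1, a sensor of Z-form nucleic acids, was the most abundant of the 4, with a lowest, median and highest value of 28.1, 36.5 and 78.5 TPM in CON and of 37.3, 40.4 and 53.7 TPM in DCLI. Each DCLI calf lay above the control median, yet control calf 4 was higher than any DCLI calf, and the log2 fold change was 0.05 ± 0.17 (SE, n = 7 each). DHX58, a regulator of the RIG-I-like receptors also known as LGP2, had 10.98, 15.4 and 24.2 TPM in CON and 8.15, 18.7 and 22.9 TPM in DCLI. DDX58, which encodes the RNA sensor RIG-I, had 7.14, 11.5 and 20.9 TPM in CON and 9.26, 14.2 and 16.6 TPM in DCLI. The groups overlapped for both genes, whose log2 fold changes were 0.12 ± 0.21 and 0.15 ± 0.20 (SE). IFIH1, the MDA5 sensor of long double-stranded RNA, had 5.38, 6.75 and 13.9 TPM in CON and 4.83, 7.65 and 9.78 TPM in DCLI, with a log2 fold change of -0.19 ± 0.20 (SE). Control calf 2 was its highest calf and DCLI calf 1 its lowest. None of the 4 passed the threshold (lowest adjusted p 0.798 by limma).

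The transcription factors carry the signal to the genes. STAT2, a signal transducer of the type I response, had a lowest, median and highest value of 8.09, 48.9 and 66.5 TPM in CON and of 42.3, 61.1 and 72.7 TPM in DCLI. Control calf 7, at 8.09 TPM, lay far below the next lowest control at 41.3 TPM, and the other 13 calves formed one range. The log2 fold change of STAT2 was 0.57 ± 0.34 (SE) with that calf and 0.20 without it. IRF9, the DNA-binding subunit of the same complex, had 21.8, 32.0 and 52.5 TPM in CON and 27.1, 35.5 and 52.0 TPM in DCLI (log2 fold change 0.10 ± 0.19, SE). Control calf 7 was not low in IRF9.

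IRF1, a factor induced strongly by interferon gamma, had a lowest, median and highest value of 17.3, 26.5 and 87.5 TPM in CON and of 15.4, 21.6 and 38.9 TPM in DCLI. Control calf 2 held the highest value, and the next highest control was at 36.1 TPM. The log2 fold change was -0.33 ± 0.31 (SE) with all calves and -0.06 without control calf 2. IRF7, the amplifier of type I interferon production, had a mean of 13.6 TPM and a log2 fold change of -0.17. The lowest adjusted p of the 4 factors was 0.632.

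Effectors that bind RNA or stop translation made up 9 of the genes. OAS1Y, a 2'-5' oligoadenylate synthetase whose product activates RNase L, was the most abundant, with a lowest, median and highest value of 80.03, 94.8 and 201 TPM in CON and of 60.6, 131 and 179 TPM in DCLI. Its neighbouring copy OAS1X had 4.31, 6.44 and 25.4 TPM in CON and 1.04, 6.47 and 18.4 TPM in DCLI, a log2 fold change of -0.51 ± 0.51 (SE). OAS1X was high in control calves 4 and 7 and in DCLI calf 2, at 25.4, 22.0 and 18.4 TPM, and lowest in DCLI calves 4 and 6, at 1.04 and 1.61 TPM. The OAS1 genes of cattle are near copies. The submitters' notes name RSEM among the tools, but how well reads were divided between such copies is not known, so their split is uncertain.

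IFIT5, which binds the 5' end of foreign RNA, had a lowest, median and highest value of 25.7, 32.2 and 57.0 TPM in CON and of 22.4, 39.0 and 44.6 TPM in DCLI. EIF2AK2, the kinase PKR that halts translation on binding double-stranded RNA, had 8.48, 10.2 and 17.3 TPM in CON and 8.88, 13.02 and 14.2 TPM in DCLI. Control calf 4 was the highest calf in both, and their log2 fold changes were 0.03 ± 0.18 and 0.15 ± 0.14 (SE). The remaining 5 genes of the group had means between 1.87 TPM for OAS2 and 20.4 TPM for ADAR, the RNA-editing deaminase. Over the 9 genes, 4 were higher and 5 lower in DCLI, and the lowest adjusted p was 0.766 (median log2 fold change -0.01).

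GTPases and other proteins that block steps of viral growth numbered 6. MX1, a dynamin-like GTPase that traps viral nucleocapsids, had a lowest, median and highest value of 18.3, 49.0 and 70.8 TPM in CON and of 28.2, 56.8 and 89.3 TPM in DCLI, a log2 fold change of 0.36 ± 0.30 (SE). The highest values were those of DCLI calves 2 and 5, at 89.3 and 89.0 TPM. CMPK2, a mitochondrial nucleotide kinase, had 9.95, 15.1 and 29.0 TPM in CON and 10.2, 19.4 and 21.9 TPM in DCLI. GBP5, a guanylate-binding protein that marks the vacuoles of pathogens, had 0.27, 1.73 and 3.50 TPM in CON and 0.53, 0.80 and 1.82 TPM in DCLI, a log2 fold change of -0.42 ± 0.23 (SE, adjusted p 0.611 by limma). For GBP5, 1 of 7 DCLI calves lay above the control median, and the ranges still overlapped. RSAD2, which encodes viperin, had a mean of 6.27 TPM and a log2 fold change of 0.13.

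The ISG15 conjugation system and the ubiquitin and ADP-ribose enzymes around it gave 8 genes. ISG15, a ubiquitin-like modifier, had a lowest, median and highest value of 81.4, 107 and 290.4 TPM in CON and of 46.8, 151 and 290.2 TPM in DCLI. The highest calf of each group was thus at the same level, in control calf 4 and DCLI calf 2, and the log2 fold change was 0.12 ± 0.36 (SE). USP18, the protease that removes ISG15 and damps the type I receptor, had 9.51, 12.04 and 34.8 TPM in CON and 13.99, 22.3 and 27.6 TPM in DCLI. All 7 DCLI calves lay above the control median of USP18, but control calf 4 was the highest of all, and the log2 fold change was 0.38 ± 0.25 (SE, adjusted p 0.661 by limma). UBA7, the activating enzyme of ISG15, had a mean of 14.1 TPM and a log2 fold change of -0.19. The neighbouring genes PARP9 and DTX3L, whose products form a complex, and PARP14 had log2 fold changes of -0.02, 0.20 and -0.003.

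TRIM25, a ubiquitin ligase that activates RIG-I, had the largest difference of the 37 genes. The control calves had 15.1, 17.1, 9.64, 19.2, 11.4, 15.5 and 23.9 TPM, in the order of their numbers. The DCLI calves had 36.8, 29.5, 23.0, 19.7, 28.9, 20.8 and 29.4 TPM. Every DCLI calf lay above the control median, and the ranges overlapped through control calf 7, which was higher than DCLI calves 3, 4 and 6. The log2 fold change was 0.74 ± 0.18 (SE, n = 7 each), with a 95% interval from 0.35 to 1.12 and an adjusted p of 0.365 over all tested genes by limma. The unadjusted p was 0.000956, and an exact permutation test over the 3432 assignments of the calves gave 0.0035 (two-sided, adjusted p 0.496). Leaving out 1 calf at a time, the adjusted p by limma ran from 0.0681 without control calf 7 to 0.750 without DCLI calf 7. With a weight for each library it was 0.014. In that setting 1388 of the 11905 tested genes passed the threshold, against 0 in the main analysis. DCLI calf 1 had the highest TRIM25 of all calves and the lowest value of 17 other members.

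The last 6 genes have mixed or less well understood roles. IFI6, a mitochondrial and endoplasmic reticulum protein that protects cells from death, had a lowest, median and highest value of 90.4, 234 and 492.6 TPM in CON and of 49.7, 225 and 635 TPM in DCLI. The highest 3 calves of each group lay between 444 and 635 TPM, and the log2 fold change was -0.27 ± 0.61 (SE), or 0.06 without DCLI calf 1. LGALS3BP, a secreted glycoprotein that binds galectins, had 112, 143 and 181 TPM in CON and 101, 171 and 201 TPM in DCLI. IFI35, a regulator of the sensing pathways, had 23.99, 27.0 and 36.5 TPM in CON and 17.1, 23.4 and 30.1 TPM in DCLI, a log2 fold change of -0.27 ± 0.13 (SE, adjusted p 0.571 by limma). XAF1, a promoter of cell death, had 6.61, 10.4 and 24.0 TPM in CON and 5.13, 10.8 and 14.3 TPM in DCLI. The adjacent genes IFI44 and IFI44L had log2 fold changes of -0.15 and -0.24. Of the 6 genes, 5 were lower in DCLI (median log2 fold change -0.24).

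**Figure D2:**
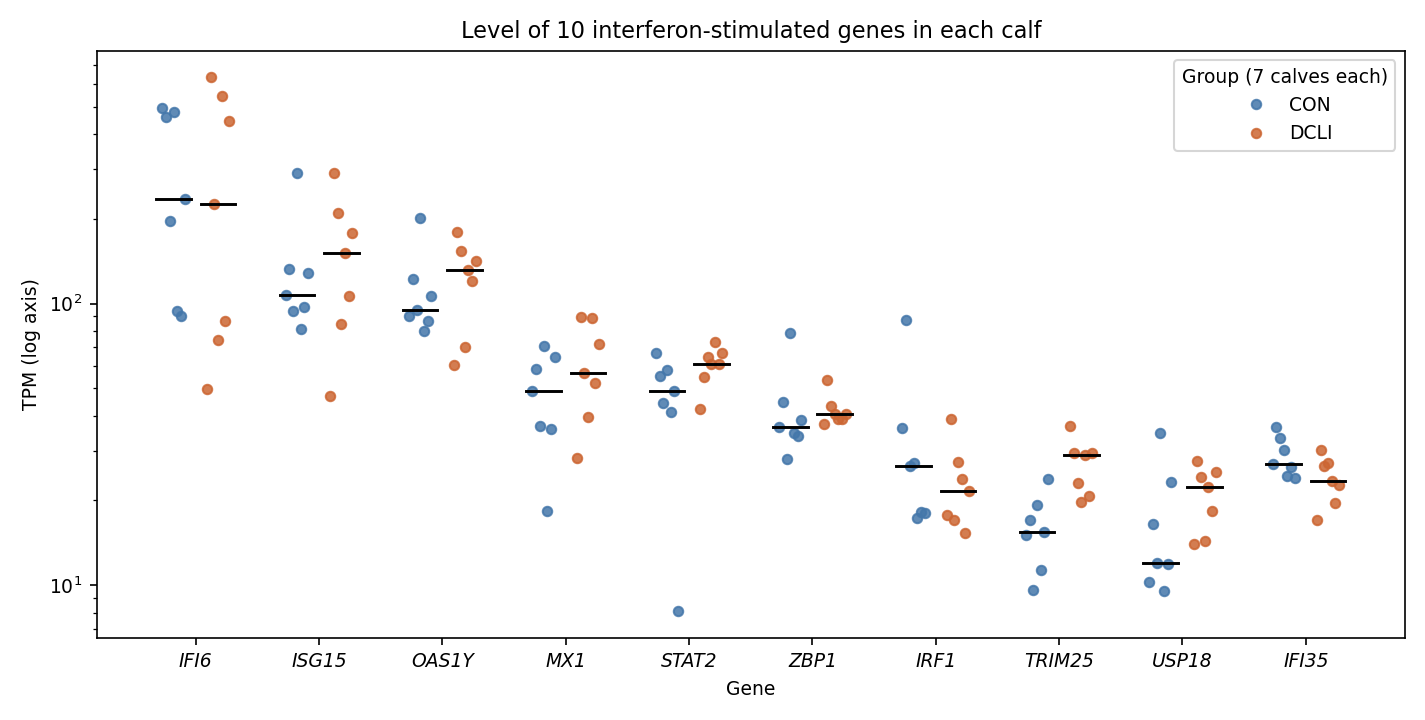
TPM on a log axis of 10 interferon-stimulated genes in each of the 14 calves, with CON in blue, DCLI in orange and a bar at the median of each group of 7. The groups overlap for each gene shown, IFI6 spans 49.7 to 635 TPM, control calf 7 stands alone at 8.09 TPM of STAT2, and all DCLI values of TRIM25 lie above the control median.

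Between the groups, the 37 genes were centred near no difference, as all tested genes were. Of them 19 (51.4%) were lower and 18 higher in DCLI, where 51.2% of all tested genes were lower. The median log2 fold change was -0.003, against -0.005 over all tested genes. By limma, 0 of the 37 passed an adjusted p of 0.05, as did 0% of all tested genes. At an unadjusted p under 0.05 there was 1 gene, TRIM25 (2.70%), against 8.89% of all tested genes, or 5.7% counting only those higher in DCLI. The exact permutation test gave the same counts of 0 and 1. For 0 of the 37 genes were the groups free of overlap, against 0.0672% of all tested genes. The direction count rested on single calves. It was 12 of 36 lower without control calf 2, where 44.8% of all tested genes were lower, and 12 of 37 without DCLI calf 1, where 43.5% were. It ran up to 24 of 37 without control calf 5 and 24 of 36 without DCLI calf 2, where 55.6% and 56.4% of all tested genes were lower.

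The intervals show what the design could resolve. The 95% interval of a log2 fold change extended by a median of 0.53 on each side of its value, from 0.28 for IFI35 to 1.29 for IFI6. It held 0 for 36 genes and lay within -1 to 1 for 32. That range is a doubling or halving of TPM + 1, and in low genes such as GBP5 it spans a larger change of TPM.

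**Figure D3:**
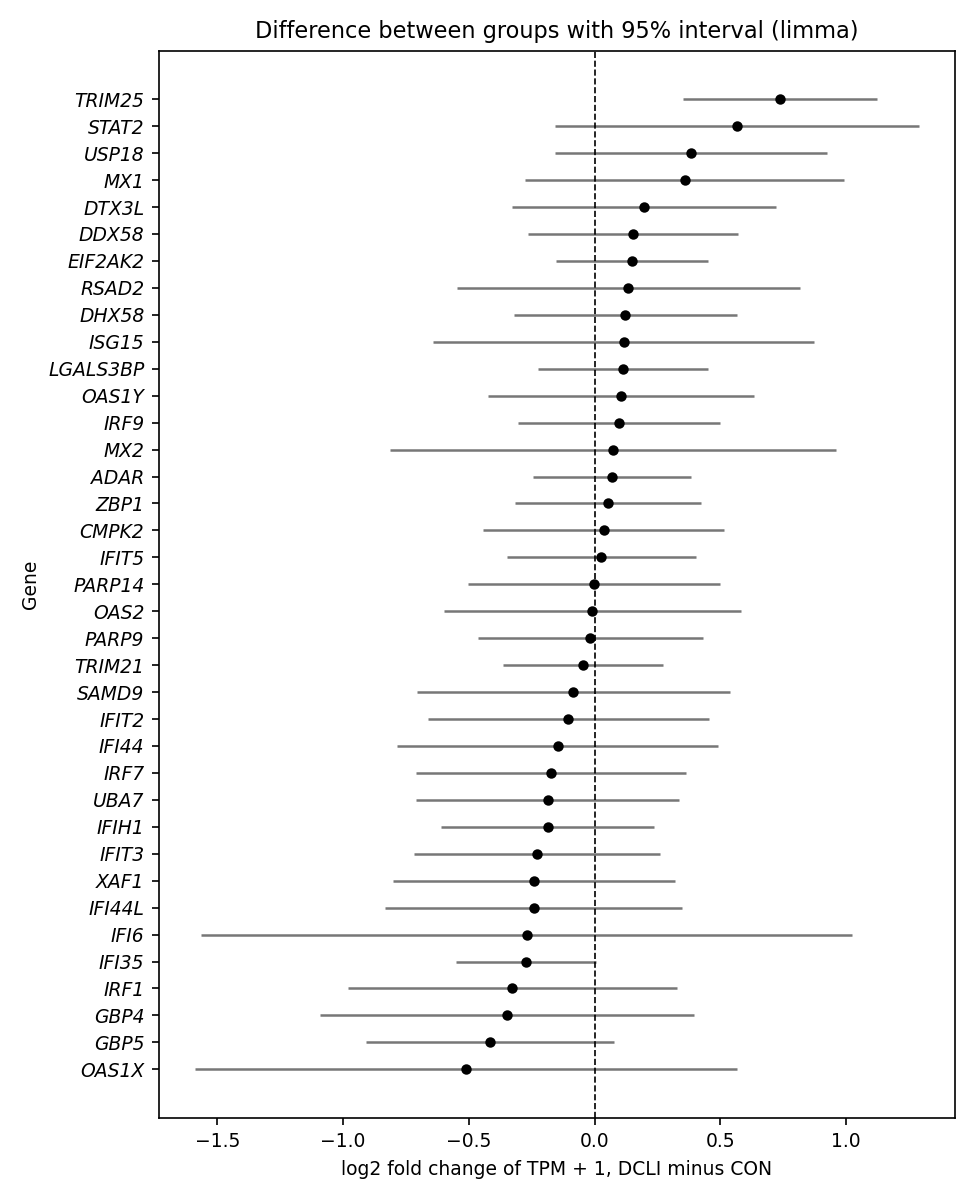
Log2 fold change of TPM + 1, DCLI minus CON, for each of the 37 genes (point) with its 95% interval from limma (line), ordered by size. The points run from -0.51 for OAS1X to 0.74 for TRIM25, and the interval of TRIM25 is the one that does not hold 0.

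Between calves the genes varied together. Over the 666 pairs of the 37 genes, the median Pearson correlation of log2(TPM + 1) across the 14 calves was 0.70 (median Spearman 0.71), and 76.0% of pairs were above 0.5. Over all pairs of tested genes the median was 0.21 and the share above 0.5 was 20.3%. The values of a pair share their libraries, and the figures are descriptions without a test. The median was 0.72 with the group means removed, 0.77 within CON and 0.76 within DCLI, and 0.67 without control calves 2 and 4. PARP14, PARP9 and OAS2 tracked the other members most closely, each with a median r of 0.82. STAT2 and TRIM25 tracked them least, both with a median r of 0.17. Without control calf 7 the median r of STAT2 was 0.51, and that of TRIM25 was 0.20.

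Several members lie next to each other in the RefSeq gene order of assembly ARS-UCD2.0, used here for order and names only. With at most 2 protein-coding genes between them, 15 genes formed 12 pairs, in the IFIT, OAS, MX, RSAD2 and CMPK2, PARP9, DTX3L and PARP14, and IFI44 groups. The median r of these pairs was 0.84. It was 0.94 for PARP9 with PARP14, 0.92 for IFI44 with IFI44L, 0.86 for IFIT2 with IFIT3, 0.85 for MX1 with MX2 and 0.84 for RSAD2 with CMPK2. The lowest was 0.58, for OAS1X with OAS2.

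The calves formed a graded series that crossed the groups. The mean over the 37 genes of log2(TPM + 1), each centred on its mean over all calves, was 0.65 in control calf 4, 0.58 in control calf 2 and 0.59 in DCLI calf 2. It was -0.57 in control calf 5, -0.47 in control calf 6 and -0.58 in DCLI calf 1. The group means were both 0.00, with an SD of 0.48 in CON and 0.40 in DCLI (n = 7 each). Control calf 4 held the highest value of 16 of the 37 genes (43.2%), although it held the highest value of 2.17% of all tested genes. Control calf 2 held the highest value of 15 (40.5%), but it did so for 23.98% of all tested genes as well. At the low end, DCLI calf 1 held the lowest value of 17 genes (45.9%), against 24.4% of all tested genes. DCLI calf 1 also had 569 TPM of the haemoglobin gene HBA, against 29.1 to 136 TPM in the other calves, and 2.92 TPM of HBB. The same calf had the lowest sums of T and NK cell markers, 44.5 TPM, and of macrophage markers, 1694 TPM, and the fewest genes at 1 TPM, 11430. The part of these values in its low interferon-stimulated genes was not tested.

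Most of the 37 genes were above their median over calves in both control calf 2 (32 genes) and control calf 4 (36 genes). The 2 calves differed in how high each gene was. Of the 37, 21 were higher in control calf 4 than in control calf 2 and 16 the other way. Control calf 4 exceeded control calf 2 by 3.95-fold in OAS1X, 2.20-fold in ISG15, 2.19-fold in IFI44, 2.12-fold in USP18 and 1.75-fold in ZBP1. Control calf 2 exceeded control calf 4 by 3.22-fold in IRF1, 3.20-fold in GBP4, 2.60-fold in SAMD9 and 2.02-fold in GBP5. PARP9 and IFI6 differed little between them, with control calf 4 higher by 1.01-fold and 1.04-fold. These genes were picked after their values were seen, and each value is 1 library. Other genes higher in control calf 2 than in control calf 4 included XAF1 (1.48-fold), IFIT2 (1.43-fold) and IFIT3 (1.34-fold). IRF1 and the guanylate-binding proteins are known targets of interferon gamma, whose part in these values was not tested.

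**Figure D4:**
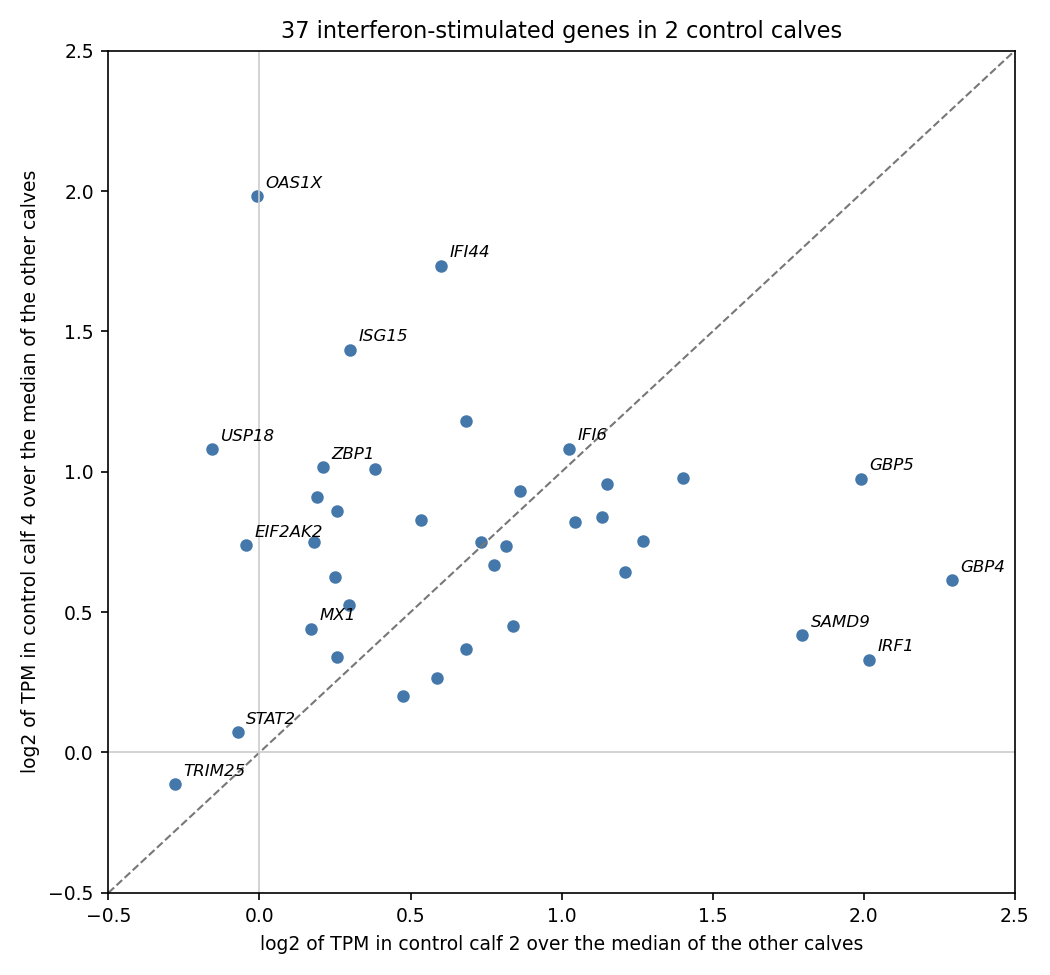
Each point is 1 of the 37 genes, placed by the log2 ratio of its TPM to the median of the other 13 calves in control calf 2 (horizontal) and in control calf 4 (vertical), with a dashed line of equality. OAS1X, IFI44, ISG15 and USP18 lie far above the line and IRF1, GBP4, GBP5 and SAMD9 far below it.

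The transcript of interferon gamma itself, IFNG, was listed at 3.70 TPM in control calf 2, at 0.09 to 0.20 TPM in DCLI calves 1, 5 and 6, and at 0 in the other 10 calves. Some genes outside the list that interferon gamma is known to induce were also highest in control calf 2, among them CXCL9 and IDO1, and others were not. CXCL9, a chemokine that draws T cells, was at 385 TPM there, against 2.11 to 102 TPM in the other calves. IDO1, an enzyme that degrades tryptophan, was at 115 TPM, against 8.53 to 46.7 TPM. IFI30, a lysosomal thiol reductase, was highest in control calf 3, at 60.9 TPM against 57.1 TPM in control calf 2. GBP6 was highest in control calf 3 (5.84 TPM against 0.11 TPM) and SOCS1 in control calf 6 (2.62 TPM against 1.91 TPM). The 12 T and NK cell markers and the 10 macrophage markers each had their highest value in that calf. Control calf 4 had IFNG listed at 0 and a T and NK cell marker sum of 157 TPM, which was below control calf 1 at 232 TPM and DCLI calf 2 at 175 TPM and above the remaining 10 calves, at 44.5 to 127 TPM. IFI27, an interferon-induced mitochondrial protein, was at 757 TPM in control calf 4, its highest level in any calf. The part of cell content in the values of control calf 2 was not tested.

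**Figure D5:**
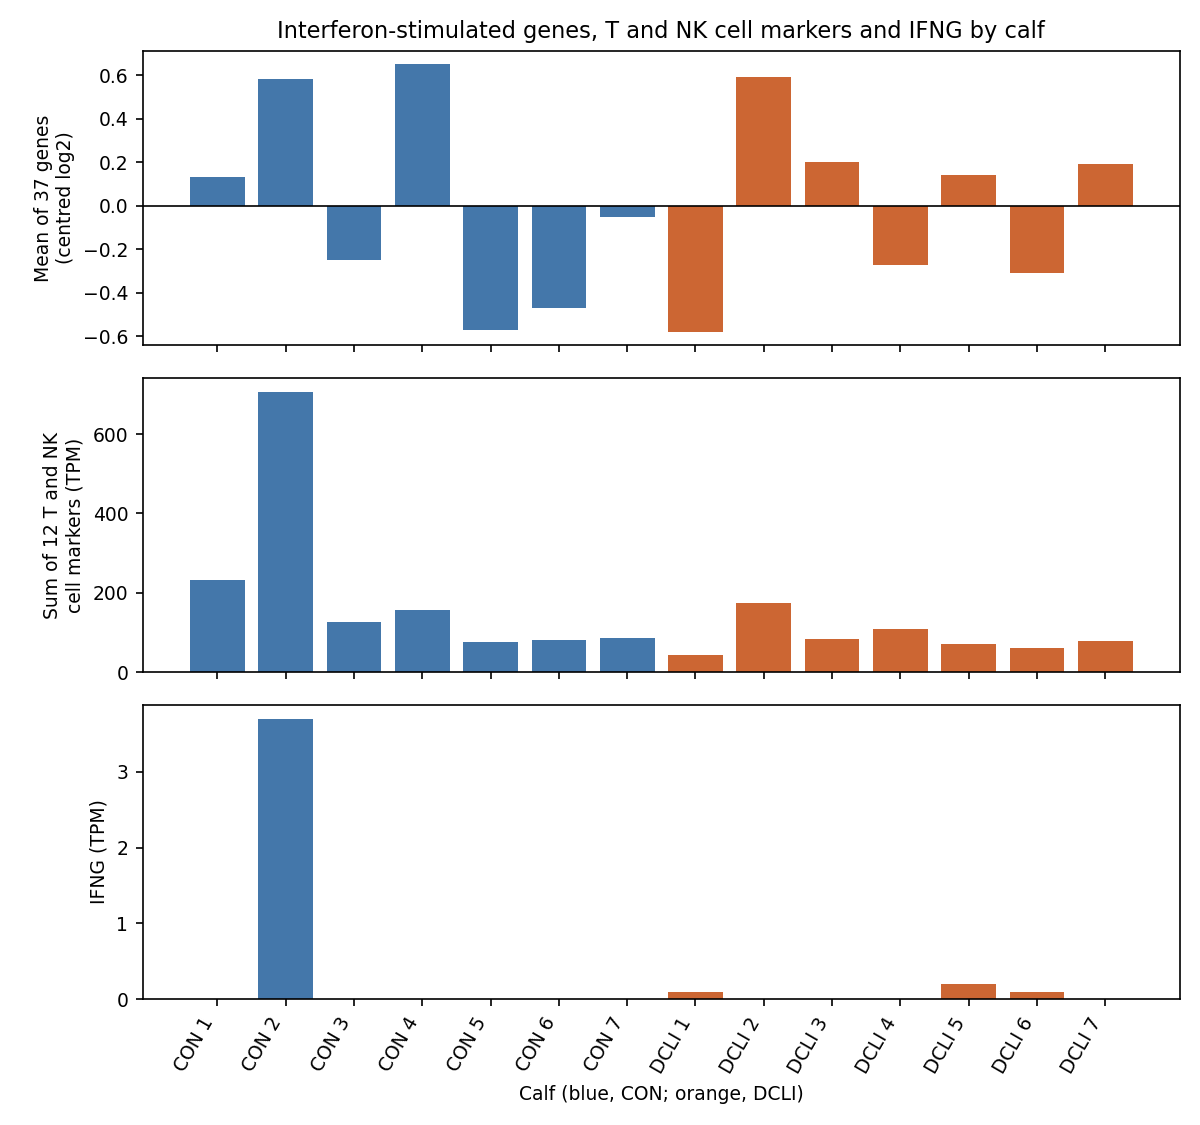
By calf (CON in blue, DCLI in orange), the mean of the 37 genes on the centred log2 scale, the summed TPM of 12 T and NK cell markers, and the TPM of IFNG. Control calves 2 and 4 and DCLI calf 2 are alike in the upper panel at 0.58 to 0.65, while control calf 2 alone is high in the other panels, at 706.5 TPM and 3.70 TPM.

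Among interferon genes and receptors, 7 of the 19 listed genes were in the table and 6 were tested, with 4 higher and 2 lower in DCLI and 0 past the threshold. Of the interferon genes on that list, the table held IFNG alone, and it was too low to be tested. IFNAR1, a chain of the type I receptor, had a lowest, median and highest value of 11.96, 15.8 and 24.9 TPM in CON and of 17.9, 20.6 and 44.5 TPM in DCLI, a log2 fold change of 0.48 ± 0.21 (SE, adjusted p 0.526 by limma). The highest value was that of DCLI calf 1, which had the lowest centred mean of the interferon-stimulated genes, -0.58. Control calf 5, nearly as low at -0.57, had 13.1 TPM of IFNAR1. IFNGR2 and IFNGR1, the chains of the interferon gamma receptor, had log2 fold changes of 0.16 and -0.23.

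Of the upstream signalling genes, 21 of 24 were tested, with 5 higher and 16 lower in DCLI and 0 past the threshold (median log2 fold change -0.11). IKBKE, a kinase that activates IRF3 and IRF7, had a lowest, median and highest value of 1.72, 3.27 and 6.25 TPM in CON and of 0.87, 2.10 and 2.47 TPM in DCLI (log2 fold change -0.53 ± 0.21, SE). TRAF3, an adaptor of the same kinases, and PTPN2, a phosphatase of JAK1, had log2 fold changes of -0.32 and -0.28. IRF3, the factor that starts interferon transcription, was the most abundant on average and differed by -0.05. Control calf 2 held the highest value of 16 of the 24 genes, and without it 10 were higher and 11 lower (median -0.01). Over all tested genes without that calf, 44.8% were lower and the median was 0.023.

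Other interferon-stimulated genes outside the 39 gave 44 tested of 49 in the table, with 12 higher and 32 lower in DCLI and 0 past the threshold (median log2 fold change -0.12). CXCL9 and CXCL10, both chemokines of the interferon gamma response, had log2 fold changes of -1.75 ± 0.70 and -1.18 ± 0.46 (SE, adjusted p 0.487 and 0.479 by limma). The control mean of CXCL9 was 84.97 TPM with control calf 2 and 35.0 TPM without it, against 12.6 TPM in DCLI. IFI30 had a log2 fold change of -0.80 ± 0.31 (SE). IFITM3, which blocks viral entry and was the most abundant of these genes, ran from 939 to 2113 TPM in CON and from 1306 to 2982 TPM in DCLI, and control calf 2 had its lowest level. Control calf 2 held the highest value of 31 of the 49 genes and control calf 4 that of 8. Without control calf 2, 22 were higher and 22 lower in DCLI, with a median of 0.00, where 44.8% of all tested genes were lower.

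All 12 genes of the immunoproteasome and MHC class I presentation were highest in control calf 2. Of them 10 were lower and 2 higher in DCLI, and 0 passed the threshold (median log2 fold change -0.33). JSP.1, a class I heavy chain, had a log2 fold change of -1.08 ± 0.40 (SE, adjusted p 0.465 by limma), and its level is uncertain because class I genes are polymorphic near copies. PSMB10 and PSMB8, subunits of the immunoproteasome, had log2 fold changes of -0.56 and -0.61. Without control calf 2, 9 of the 12 genes were lower, with a median of -0.14, where 44.8% of all tested genes were lower. B2M, the light chain of class I molecules, ran from 1075 to 3770 TPM in CON and from 845 to 1640 TPM in DCLI.

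Most markers of T cells, NK cells, macrophages and neutrophils were lower in DCLI, as were most genes of the 3 lists after the receptors. All 12 T and NK cell markers were lower in DCLI, with a median log2 fold change of -0.55, as were 9 of 10 macrophage markers (median -0.36) and 5 of 5 neutrophil markers (median -0.35), while 7 of 9 hepatocyte markers were higher (median 0.15). Of the B and plasma cell markers 5 of 6 were lower (median -0.16), or 2 of 6 without control calf 2 (median 0.09). Both tested plasmacytoid dendritic cell markers, IL3RA and TCF4, were slightly higher, by log2 fold changes of 0.01 and 0.11 (median 0.06). LILRA4 and PTCRA were too low to be tested, and CLEC4C was not found in the table. None of the tested markers passed the threshold. The summed T and NK cell markers ran from 75.5 to 706.5 TPM in CON and from 44.5 to 175 TPM in DCLI, and the macrophage markers from 1921 to 8390 TPM and from 1694 to 5085 TPM. Without control calf 2, 10 of 12 T and NK cell markers (median -0.24) and 8 of 10 macrophage markers (median -0.17) were lower. The neutrophil markers remained lower without it, 5 of 5, with a median of -0.43. Over all tested genes 44.8% were then lower. With all calves, 3 of 5 endothelial markers were higher in DCLI (median 0.06), as was 1 of the 2 tested erythroid markers. The part of cell content in the differences of the 4 pathway lists was not tested.

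Transcript variants bore on some members. Of the 37 genes, 17 had 1 transcript in the deposited data and 20 had more, up to 13 for ADAR. For IFI6, the leading of 3 transcripts held 86.0% to 95.7% of the gene's TPM in each calf. For IRF1 the leading of 2 transcripts held a median of 93.4%. For IFI35 the transcript with the highest mean held 45.4% of the mean TPM and was the leading one in 4 of 14 calves. For GBP4, with 11 transcripts, the share of the leading transcript ran from 15.5% to 72.7%. Estimates for such transcripts share reads, so the summed values of the genes were used throughout.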

How the data were processed

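The authors deposited TPM values for each transcript, from poly(A)-selected libraries sequenced on DNBSEQ. Per the submitters' processing notes, the tools were SOAPnuke 1.5.6, RSEM 1.3.1 and DESeq2 1.4.5. The genome build is not given in the sources used here. TPM keeps no depth, so no counting interval is given.

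Transcripts were added up by gene ID, and genes reaching 1 TPM in 7 or more libraries were tested (11905 of 17469). The group test was that of limma 3.58.1 (R 4.3.3), with a mean-variance trend and no covariate, on log2(TPM + 1), which understates the change of low genes. P-values were adjusted by Benjamini-Hochberg over all tested genes, with a threshold of 0.05. The procedure was tested on simulated data in which each gene varied independently. Shifts shared by many genes of a calf were not part of that simulation.

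The members and the gene lists were chosen with earlier results of these data known. Of 166 genes on the pathway and cell marker lists, 148 were found in the table. Genes were named by rule: in each role the 2 of highest mean TPM, the 2 of lowest unadjusted p and any past the threshold, and in each pathway list the 3 of lowest unadjusted p and the 1 of highest mean. Any others were chosen after their values were seen. Promoter and protein sequences were not used here. Alternatives changed the pseudocount, filter, scaling, trend, library weights, test and block, or left out 1 calf. The values of 1 gene are not reported here.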

Additional observations from a re-analysis of the deposited data

Results flagged for a closer look

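In 13 of 76 groups of 7 calves examined, the highest or lowest calf stood apart from the other 6 by more than the 95% critical value of Dixon's test. A chance rate of about 1 in 20 groups holds for normally distributed values. The test was run on TPM without a log, so that rate cannot be applied to the 13 groups. The genes also share their libraries, and the flags are descriptions only. Values are in TPM, each followed by the nearest other calf of the same group.

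Control calf 4 was set apart as the highest control in 6 genes. It had 78.46 TPM of ZBP1 (next 44.87), 56.96 TPM of IFIT5 (next 38.4) and 17.26 TPM of EIF2AK2 (next 10.5). It also had 200.6 TPM of OAS1Y (next 121.8), 290.4 TPM of ISG15 (next 132.3) and 72.34 TPM of IFI44 (next 32.98).

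Control calf 2 was set apart in IRF1, at 87.45 TPM (next 36.12), and in GBP4, at 24.91 TPM (next 7.79). DCLI calf 2 was set apart as the highest of its group in ZBP1, at 53.72 TPM (next 43.26), and in IFIT3, at 6.30 TPM (next 3.66). It was also set apart in SAMD9, at 5.87 TPM (next 3.19), and in UBA7, at 26.93 TPM (next 13.64). Control calf 7 was the only calf set apart at the low end, with 8.09 TPM of STAT2 (next 41.27).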

How the results depend on the processing

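Of the 11905 tested genes, the count past the adjusted threshold was 0 in the main analysis, 1 with the replicate number as a block and 1388 with a weight for each library. With 1 calf left out it ran from 0 to 12, the latter without control calf 7. The count among the 37 genes was 0 in the main analysis, with the block and with any 1 calf left out, and 1 (TRIM25) with library weights. Library weights, from 0.336 for control calf 2 to 5.93 for DCLI calf 7, also moved the number lower in DCLI from 19 to 6, their median log2 fold change from -0.003 to 0.22 and the median of all tested genes to 0.082. They reversed IFI6 to 0.71, IFIH1 to 0.06 and XAF1 to 0.13, and the cause was not tested. With 1 calf left out, the number lower ran from 12 to 24 and the median from -0.10 to 0.14. The sign then changed for CMPK2 (-0.08 to 0.17), IFI6 (-0.55 to 0.06), IFIT5 (-0.04 to 0.15), ISG15 (-0.07 to 0.36), OAS1Y (0 to 0.26) and ZBP1 (-0.03 to 0.21). The log2 fold change of TRIM25 ran from 0.61 to 0.90 over the other alternatives and from 0.63 to 0.84 with 1 calf left out. No pairing of same-numbered calves is named in the labels. The correlation of their deviations ran from -0.18 to 0.45, and 2 of 7 pairs correlated best with their own number. These values cannot decide whether same-numbered calves share a block. Leaving control calf 2 out of the pathway list counts was chosen after seeing the data. Depth is unknown, so how far it limits the low genes cannot be given.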
